A study of Mus musculus with 8 samples.

Results

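The ABC sterol exporters Abca1 and Abcg1 were examined together with 4 further transporters of the same subfamilies, Abca2, Abca3, Abca7 and Abcg2. The 6 members were taken by gene symbol from a table of 41730 entries, each matched 1 entry, and all 6 were among the 12162 genes with enough reads to be tested. All 8 libraries came from mouse CD8+ T cells with the OT-I genotype, a transgenic receptor for the ovalbumin peptide SIINFEKL. In both groups these T cells shared a culture with bone marrow-derived dendritic cells carrying the peptide, from which they were sorted by flow cytometry before RNA was taken. The control group received the solvent DMSO (4 libraries, replicates 1 to 4), and the other group received 2 µM RGX-104, a man-made compound that activates the liver X receptors (LXR; 4 libraries, replicates 5 to 8). The sources used here do not give the strain, age or number of mice, the length of the culture, or whether libraries of a group came from separate cultures, so p-values reflect the spread between these libraries, which may be technical only.

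ABC transporters use the energy of ATP to move substrates across membranes. ABCA1 loads cholesterol and phospholipid from the cell onto lipid-poor apolipoprotein A-I, and ABCG1, which works as a dimer, passes sterol on to larger lipoprotein particles. Both genes are textbook targets of LXR, nuclear receptors that bind DNA as partners of RXR and are switched on by oxidised cholesterol, so that a cell with surplus sterol exports it. In T cells this export is known to bear on how much cholesterol is at hand for membranes during proliferation. The other members transport mainly other lipids or drugs and served as the comparison.

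LXR and RXR bind a short motif that is repeated after a spacer of 4 free bases, a direct repeat called DR4. Part of the promoter of Abca1 is shown because Abca1 was the gene with the largest rise. Its start differs between annotations. The promoter table's window counts from 53159895, which is also the start of the GENCODE M21 model, whereas the RefSeq gene reaches to 53159988, so that 93 of the 250 bases before the first of these starts lie inside the RefSeq gene. The 157 bases of the window outside the gene in both annotations are printed 5′ to 3′ (GRCm38.p6, minus strand, chr4:53159989-53160145), with CACGTG in capitals.
Abca1 upstream: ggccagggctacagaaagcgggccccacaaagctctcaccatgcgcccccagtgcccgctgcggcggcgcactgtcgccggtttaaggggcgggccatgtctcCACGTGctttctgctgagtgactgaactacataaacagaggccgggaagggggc
The best match of the window to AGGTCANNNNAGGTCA lies nearer to the gene, at chr4:53159947-53159962, and is printed on the strand that reads like the motif, with the repeated part in capitals.
Abca1 best DR4 match: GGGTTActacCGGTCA

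The match lay 67 to 52 bases before the start at 53159895, inside the RefSeq gene with its longer 5′ end, and differed from the motif at 3 of its 12 fixed positions. Both strands were searched. Of 32841 promoter windows of 300 bases in the RefSeq table, 21.9% held a match at least as close, so a match of this kind is common. Windows were at hand for 5 of the 6 members, 7 windows in all, and the best matches of Abca2, Abca3, Abca7 and Abcg2 had 4 or more mismatches, while 76.9% of all windows held a match with 4 or fewer. The same Abca1 window held TATAAA beginning 29 bases before that start, also inside the RefSeq gene (in 13.6% of windows, either strand) and CACGTG beginning 147 bases before it (7.15%), and neither overlapped the DR4 match. These are matches of letters, and binding was not measured.

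RGX-104 libraries held about 10.5 times as much Abca1 RNA and 5.32 times as much Abcg1 RNA as control libraries, while none of the other 4 members passed the test. Levels are given as CPM, the reads of a gene relative to all reads of its library after TMM scaling. The library kit reads the 3′ ends of transcripts, so CPM was not divided by gene length. Over all genes, 324 of 12162 (2.66%) had an adjusted p under 0.05 in edgeR's quasi-likelihood test, with 0.888% higher and 1.78% lower, and the median log2 fold change was 0.00. Of the 6 members, 2 were called, both higher. An unadjusted p under 0.05 was found for 3 of the 6 members and for 1679 of all genes (13.8%).

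Abca1 (NCBI gene 11303, chromosome 4, 53030789 to 53159988, GRCm38.p6) had 118, 127, 138 and 116 reads in control replicates 1 to 4 and 1141, 1332, 1235 and 1120 reads in RGX-104 replicates 5 to 8. In CPM these were 7.62, 8.54, 8.71 and 7.66 against 80.0, 92.6, 82.7 and 85.3. Every RGX-104 library lay far above every control library, where 3.88% of all tested genes had every RGX-104 library higher. Within each group the libraries lay close together. The rise was 3.39 ± 0.11 on the log2 scale (± SE; 95% interval 3.17 to 3.61; adjusted p = 1.24e-15). It was the largest log2 fold change and the smallest p among the 12162 genes tested. The spread of the libraries as a percentage of their mean was 7.00% in control and 6.36% in RGX-104. Counting noise alone would give 8.95% and 2.88%, so the control libraries varied no more than counting noise, and the RGX-104 libraries varied more.

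Abcg1 (NCBI gene 11307, chromosome 17, 31057694 to 31117984) had 142, 127, 208 and 139 reads in control and 785, 594, 844 and 791 in RGX-104. In CPM these were 9.17, 8.54, 13.1 and 9.18 against 55.1, 41.3, 56.5 and 60.3. The groups did not overlap, as for 3.88% of all tested genes in this direction. In each group 1 library stood apart from the rest, control replicate 3 on the high side and RGX-104 replicate 6 on the low side. Abcg1 rose by 2.41 ± 0.15 on the log2 scale (95% interval 2.10 to 2.72; adjusted p = 2.52e-10), ranking 4 by log2 fold change and 7 by p among all genes tested. Without control replicate 3 the log2 fold change was 2.57, and without RGX-104 replicate 6 it was 2.52. Abcg1 varied more than Abca1, by 21.0% of its mean in control and 15.5% in RGX-104, where counting noise alone would give 8.06% and 3.64%.

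**Figure D1:**
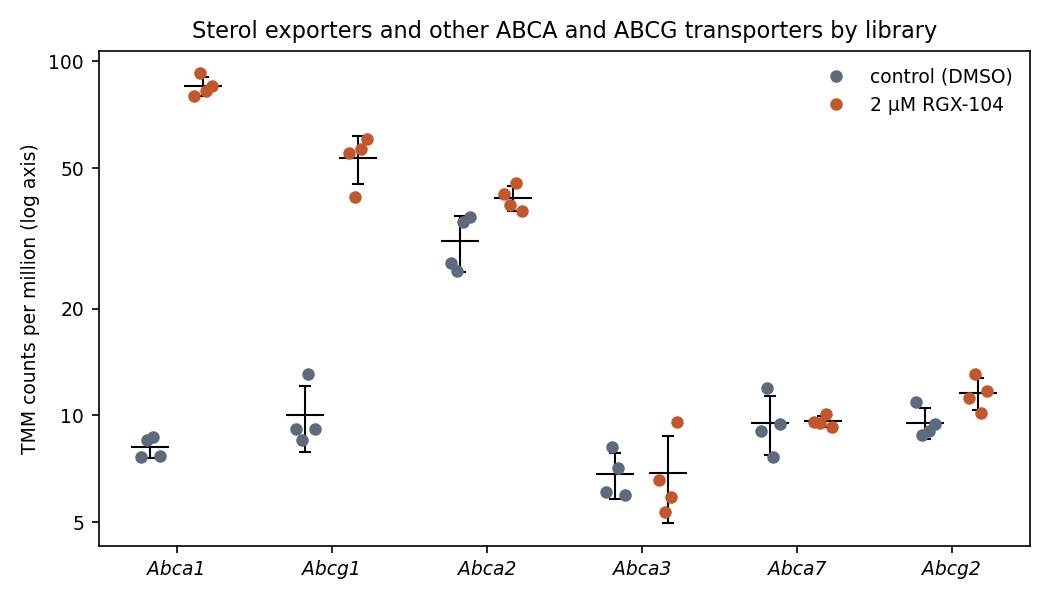
TMM-scaled CPM (log axis) of the 6 members in each library, with control libraries in grey and RGX-104 libraries in orange; black bars give the mean ± SD of 4 libraries. Abca1 (7.62 to 8.71 against 80.0 to 92.6) and Abcg1 (8.54 to 13.1 against 41.3 to 60.3) are separated by group, Abca2 narrowly so, and the groups overlap for Abca3, Abca7 and Abcg2.

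Abca2 (NCBI gene 11305, chromosome 2, 25428599 to 25448544) encodes a transporter of late endosomes and lysosomes that is abundant in myelin-forming cells. Its levels were 26.9, 25.7, 35.3 and 36.4 CPM in control and 42.3, 39.3, 45.4 and 37.8 CPM in RGX-104. All 4 RGX-104 libraries lay above the highest control library, the closest by little, a pattern that 3.88% of all tested genes showed. The log2 fold change was 0.41 ± 0.12 (95% interval 0.15 to 0.66), with an adjusted p = 0.0898 in edgeR, above the threshold. DESeq2 placed it just under the threshold (adjusted p = 0.0491), as did edgeR without control replicate 4 (adjusted p = 0.0485), and the other alternatives gave 0.0722 to 0.316. Control replicates 3 and 4 were higher than replicates 1 and 2, and this split inside the control group was about as wide as the gap between the groups' means.

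Abcg2 (NCBI gene 26357, chromosome 6, 58584491 to 58692451), an efflux pump for drugs and urate, had 10.9, 8.80, 9.02 and 9.45 CPM in control and 11.2, 13.1, 10.2 and 11.7 CPM in RGX-104. The lowest RGX-104 library lay inside the control range. The log2 fold change was 0.27 ± 0.17 (95% interval -0.09 to 0.64; adjusted p = 0.519).

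Abca7 (NCBI gene 27403, chromosome 10, 79996453 to 80015572), a phospholipid transporter known from phagocytes, had 9.04, 11.96, 7.63 and 9.45 CPM in control and 9.61, 9.53, 10.1 and 9.30 CPM in RGX-104. All RGX-104 libraries lay inside the control range, and their means were 9.52 and 9.64 CPM. The log2 fold change was 0.02, with a 95% interval from -0.37 to 0.41 (adjusted p = 0.982).

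Abca3 (NCBI gene 27410, chromosome 17, 24351921 to 24410204) fills the surfactant-storing lamellar bodies of lung cells with lipid. It had 6.07, 8.13, 7.13 and 5.95 CPM in control and 6.59, 5.35, 5.89 and 9.60 CPM in RGX-104. Both the highest and the lowest of the 8 libraries were RGX-104 libraries, and the log2 fold change was 0.01 (95% interval -0.48 to 0.49; adjusted p = 0.996). Its exons overlap those of D330041H03Rik on the opposite strand over 914 bases in GENCODE M21, 691 of them in the last 1000 exonic bases of Abca3. The sources used here do not give the strand setting of the counting, so reads of this pair could not be told apart with certainty. No exon overlap with another gene was found for the other 5 members.

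Because reads of a pair of genes in 1 library share its depth and scaling, the ratio between members was compared across groups for 9 pairs. Each of the exporters was set against each of the 4 others, and Abca1 against Abcg1, with an exact two-sided permutation test over the 8 libraries. In that exact permutation test all 9 pairs reached the smallest p this design allows, p = 0.0286. Benjamini-Hochberg adjustment over the 9 pairs left it at 0.0286, because all p-values were equal. For pairs of an exporter with another member, this was set by the separation of Abca1 and Abcg1 given above. Those tests therefore add no separate support. The log2 ratio of Abca1 to another member differed between the groups by 2.95 with Abca2, 3.10 with Abcg2, 3.33 with Abca7 and 3.38 with Abca3. The log2 ratio of Abcg1 differed by 1.98 with Abca2, 2.13 with Abcg2, 2.37 with Abca7 and 2.42 with Abca3. In every pair each RGX-104 library had a higher ratio than each control library.

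The exporters also changed unequally. In control replicates 1 to 4 there were 0.831, 1.00, 0.663 and 0.835 Abca1 reads for each Abcg1 read, and in RGX-104 replicates 5 to 8 there were 1.45, 2.24, 1.46 and 1.42. Abca1 was thus at or below Abcg1 in all 4 control libraries and above it in all 4 RGX-104 libraries. The log2 ratio rose by 0.96 from -0.28 ± 0.24 to 0.69 ± 0.32 (SD, n = 4 per group). The exact permutation test gave p = 0.0286, the smallest this design allows. Adjustment over the 9 pairs also gave 0.0286. The other pairs were set by the separation of Abca1 and Abcg1, so that adjustment was no further hurdle. RGX-104 replicate 6 had both the highest Abca1 level and the lowest Abcg1 level of its group, and without it the difference was 0.81. With any other library left out it lay between 0.86 and 1.06.

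**Figure D2:**
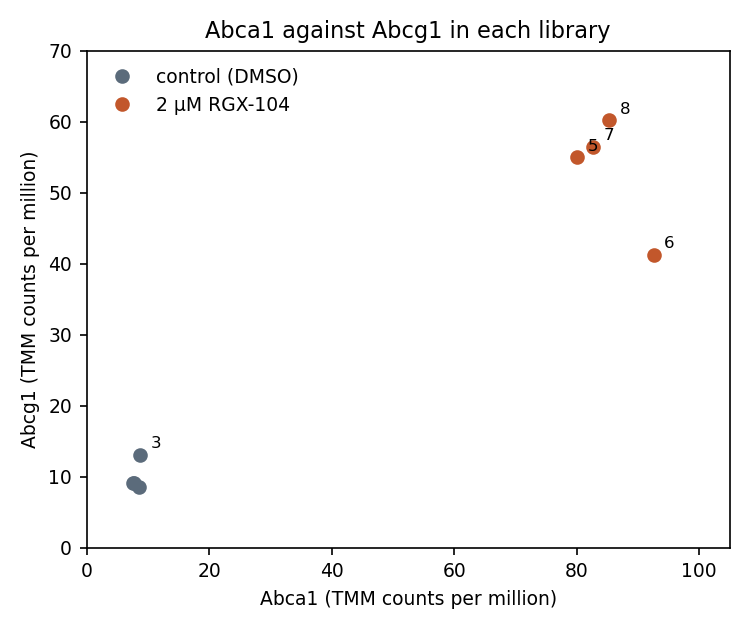
Abcg1 against Abca1 in each of the 8 libraries, both in TMM-scaled CPM; numbers mark control replicate 3 and RGX-104 replicates 5 to 8. The groups form separate clusters, and RGX-104 replicate 6 (Abca1 92.6, Abcg1 41.3) lies to the right of and below the other RGX-104 libraries.

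With the 6 members and the 16 remaining ABCA and ABCG genes counted together, reads of Abca1 and Abcg1 came to 23.1% ± 2.01 of the subfamilies' reads in control and 65.6% ± 0.952 in RGX-104 (SD, n = 4 per group). Abca1 alone went from 10.4% ± 0.871 to 40.4% ± 2.96. The subfamilies' reads together were at 78.3 ± 5.71 CPM in control and 211 ± 5.10 CPM in RGX-104. Leaving out Abca1 and Abcg1, the sums were 60.1 ± 4.12 and 72.6 ± 0.832 CPM, and Abca2, at 31.1 and 41.2 CPM, made up most of that gap. In the plot of composition the Abca2, Abca3, Abca7 and Abcg2 share goes from 72.8% to 32.8%, which is a share of the subfamilies' reads and not a level.

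**Figure D3:**
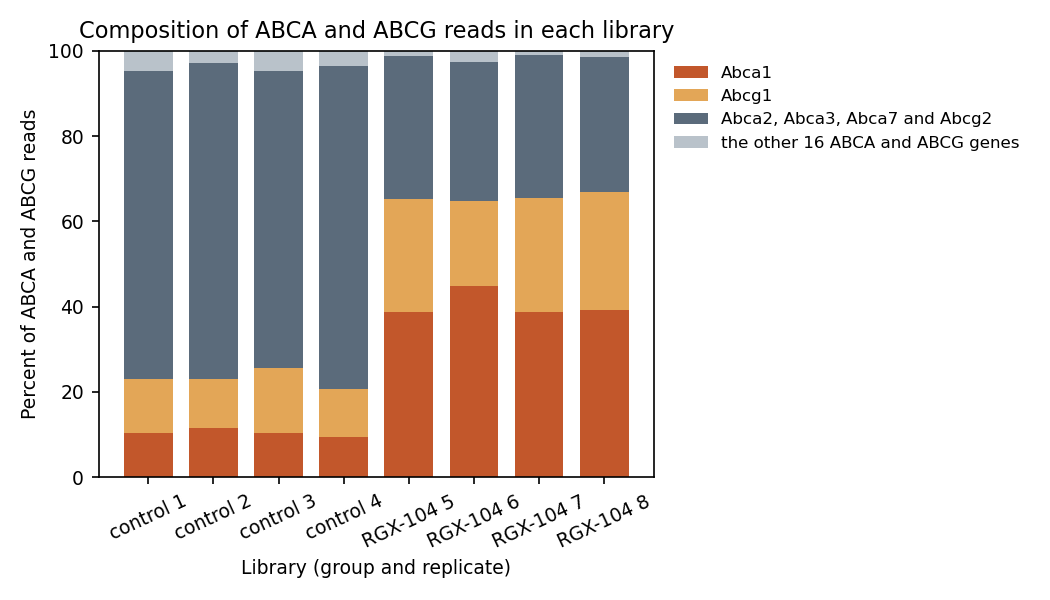
Percent of all ABCA and ABCG reads (vertical axis) held by Abca1, Abcg1, the other 4 members and the remaining 16 genes in each library. Abca1 and Abcg1 together hold 20.8% to 25.7% in control libraries and 64.8% to 67.0% in RGX-104 libraries.

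Few of the remaining ABCA and ABCG genes were measurable in these T cells. Of the 16, 5 had no read in any library (Abca12, Abca14, Abca15, Abca16 and Abcg5). The CD8 T cell marker Cd2 also had 0 reads in all libraries, so such zeros are not read as absence. Only Abca5 and Abcg3 had enough reads to be tested. Neither passed with any of edgeR, limma-voom and DESeq2, and the unadjusted p was under 0.05 for 0 of them. The means of control and RGX-104 were 0.825 and 0.965 CPM for Abca5, and 1.36 and 1.09 CPM for Abcg3 with a log2 fold change of -0.32 ± 0.64 (adjusted p = 0.882). Abcg4, a close relative of Abcg1 known mainly from brain, had 1 read in all control libraries together and 10 in all RGX-104 libraries, too few to test. The intestinal and hepatic sterol pumps Abcg5 and Abcg8, which work as a pair and are LXR targets in liver, had 0 reads and 1 read in the whole series.

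Among the other ABC subfamilies, 19 of 31 listed genes were tested, with a median log2 fold change of 0.00. None was called higher and 1 lower (5.26% called, against 2.66% of all genes). For 2 of the 19 the unadjusted p was under 0.05 (10.5%, against 13.8% of all genes). The gene that fell was Abcb1a, which encodes a P-glycoprotein drug pump. It had 15.4, 13.6, 14.1 and 11.9 CPM in control and 5.26, 8.48, 5.96 and 5.56 CPM in RGX-104, without overlap; 4.32% of all tested genes had every RGX-104 library below every control library. Its log2 fold change was -1.12 ± 0.20 (adjusted p = 0.00131, and at most 0.0443 under the 15 alternatives). Its close relative Abcb1b had means of 83.3 and 84.7 CPM (adjusted p = 0.937). The sources used here do not say how any reads matching both genes were assigned. The most abundant gene of this list, the ribosome recycling factor Abce1, was at 222 ± 11.4 and 227 ± 12.3 CPM (adjusted p = 0.858). The peptide transporter genes Tap1 and Tap2 are listed at 0 in all libraries under symbols that the table repeats, which is not read as absence.

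**Figure D4:**
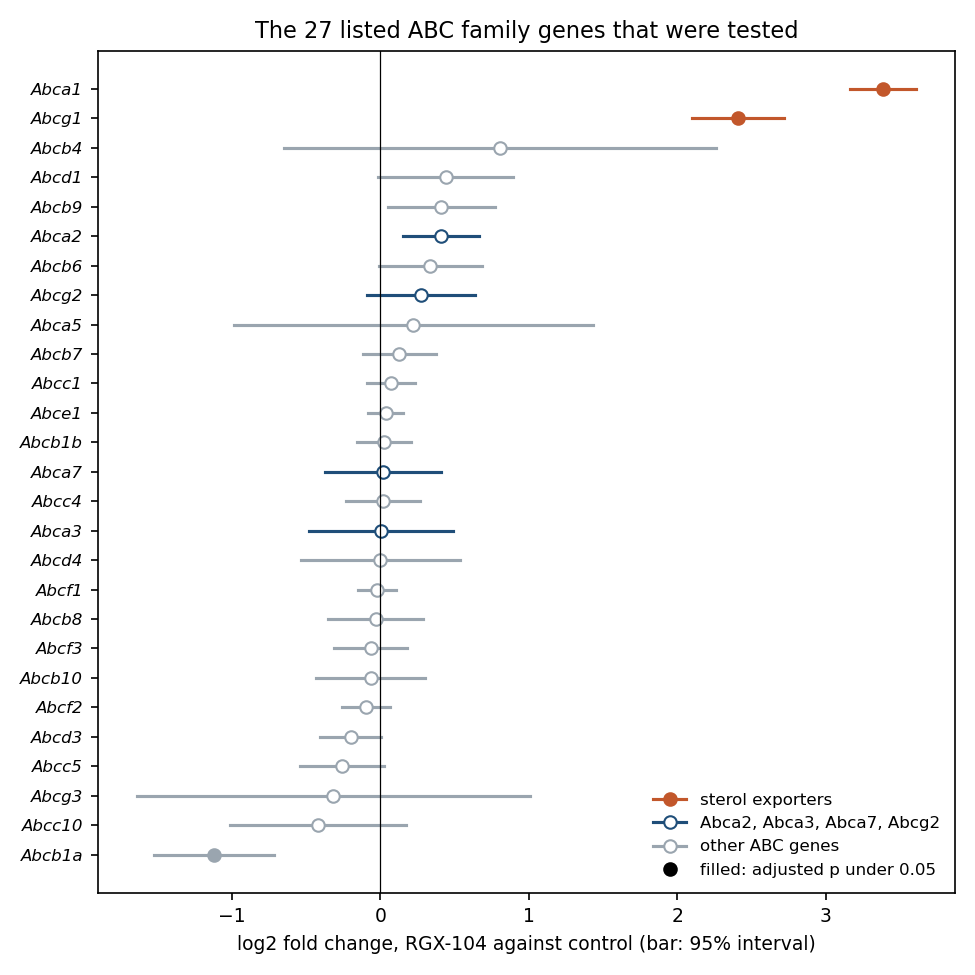
Log2 fold change of RGX-104 against control (horizontal axis) with its 95% interval for the 27 listed ABC family genes that were tested, ordered by size; filled points have an adjusted p under 0.05. Abca1 (3.39) and Abcg1 (2.41) lie to the right of all others, and Abcb1a (-1.12) is the only other filled point.

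Genes that bring sterol into the cell, move it inside or store it were listed as well. Of 25 listed, 24 were tested, of which none rose and 1 fell (4.17%, against 2.66% of all genes called; median log2 fold change -0.01, range -1.76 to 0.16). The gene that fell was Soat2, an enzyme that esterifies cholesterol for storage. It had 18.3, 13.1, 14.1 and 8.46 CPM in control and 3.30, 4.94, 4.35 and 3.35 CPM in RGX-104. The groups did not overlap, as for 4.32% of all tested genes in this direction, although the control libraries were spread widely. Its log2 fold change was -1.76 ± 0.24 (adjusted p = 6.90e-05, and at most 0.00601 under the 15 alternatives). An unadjusted p under 0.05 was found for 4 of the 24 (16.7%, against 13.8% of all genes). Besides Soat2 these included the lipoprotein receptor gene Vldlr, with 2.18 and 0.648 CPM, which did not pass (log2 fold change -1.73 ± 0.56, adjusted p = 0.125). The sterol carrier gene Stard5, with 22.5 and 14.9 CPM, was lower in each RGX-104 library than in any control library, as were 4.32% of all tested genes. It did not pass either (-0.59 ± 0.19, adjusted p = 0.110). The remaining one was Vps4a, at 47.4 and 41.1 CPM (adjusted p = 0.360). The other esterifying enzyme, Soat1, was at 53.8 and 55.4 CPM (adjusted p = 0.906). The lysosomal sterol carrier Npc2, the most abundant of the list, was at 444 ± 18.04 and 439 ± 20.9 CPM (adjusted p = 0.932).

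The receptors to which the agonist binds and their partners were also compared. Of 16 listed genes, 13 were tested (median log2 fold change 0.02). None was called higher and 1 lower (7.69% called, against 2.66% of all genes). For 2 of the 13 the unadjusted p was under 0.05 (15.4%, against 13.8% of all genes). Nr1h2, which encodes LXR beta, had means of 64.7 CPM in control and 64.9 CPM in RGX-104 (adjusted p = 0.989). Nr1h3, which encodes LXR alpha, had too few reads to be tested, at 0.326 and 0.545 CPM. Rxra, with 6.71 and 9.74 CPM, did not pass (0.54 ± 0.27 on the log2 scale, adjusted p = 0.374). Rxrb is listed at 0 under a repeated symbol, which is not read as absence. The corepressor Ncor1, the most abundant of the list, was at 538 ± 18.6 and 545 ± 11.3 CPM (adjusted p = 0.904). Nrip1, a nuclear receptor cofactor also called RIP140, had 84.6, 106.5, 95.2 and 87.9 CPM in control and 73.8, 75.6, 72.8 and 77.0 CPM in RGX-104. The groups did not overlap, with every RGX-104 library lower, as for 4.32% of all tested genes. Its log2 fold change was -0.32 ± 0.08 (adjusted p = 0.0247). That call was lost without control replicate 2 (adjusted p = 0.113) or 3 (0.0861), without RGX-104 replicate 5 (0.0590), 6 (0.0702), 7 (0.0776) or 8 (0.0571), and with a marker covariate (0.105).

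Of 12 listed genes that make or inactivate oxysterols or regulate sterol synthesis, 7 were tested. None was called by edgeR or limma-voom, and 1 was called by DESeq2. In edgeR, 1 of the 7 had an unadjusted p under 0.05 (14.3%, against 13.8% of all genes). That gene, Cyp51 of cholesterol synthesis, was at 325 ± 9.78 and 288 ± 11.4 CPM, a log2 fold change of -0.17 ± 0.05 (adjusted p = 0.0711 in edgeR and 0.0123 in DESeq2). Srebf2, the master regulator of cholesterol synthesis, was at 139 and 145 CPM (adjusted p = 0.757). Sult2b1, a sulphotransferase that inactivates oxysterols, was at 1.63 and 2.22 CPM (adjusted p = 0.762). Of 10 listed genes for lipid acceptors and lipoprotein factors, 5 were tested and none was called by edgeR, limma-voom or DESeq2, with 0 at an unadjusted p under 0.05. Apoe, the most abundant, was at 10.3 and 11.2 CPM (adjusted p = 0.840). Apoa1, the acceptor of ABCA1, had too few reads to be tested, at 0.116 and 0.159 CPM.

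The genes whose pattern over the 8 libraries was most like the mean of Abca1 and Abcg1 were sought among 10129 tested genes with a mean of at least 20 reads. The closest 5 by Pearson's r of log2 CPM were the fatty acid synthase gene Fasn (r = 0.996), the retinoic acid carrier gene Crabp2 (0.991), the granzyme gene Gzmb (0.990), the desaturase gene Scd2 (0.988) and Arl4c (0.985). The 8 points fall into the groups, so these values mostly restate that each gene was higher in all 4 RGX-104 libraries. Their own fold changes were far smaller than those of the exporters, with log2 fold changes of 0.61 for Fasn, 0.75 for Gzmb, 0.87 for Scd2 and for Arl4c, and 1.23 for Crabp2.

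**Figure D5:**
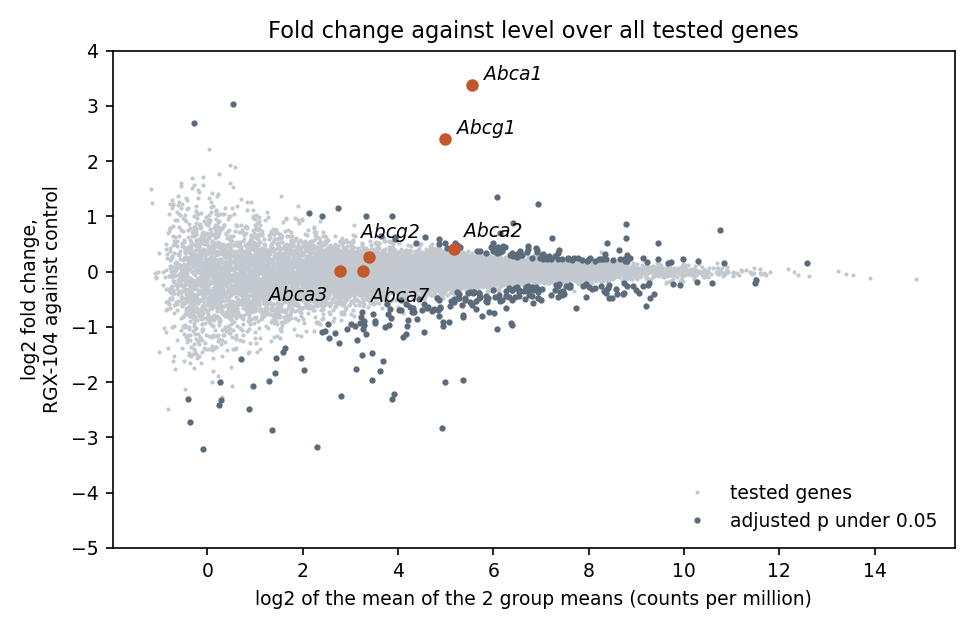
Log2 fold change of RGX-104 against control (vertical axis) against the log2 of the mean level (horizontal axis, CPM) for the 12162 tested genes, with genes under an adjusted p of 0.05 in dark grey and the 6 members in orange; 1 gene lies below the plotted range. Abca1 and Abcg1 stand above all genes of similar level, and the other 4 members lie within or at the edge of the main cloud.

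Total counts ranged from 13144704 to 15966972 per library and were 1.54e+07 ± 513073 in control and 1.42e+07 ± 752266 in RGX-104 (SD, n = 4 per group; exact permutation test, p = 0.0571). Dendritic cells and macrophages, which shared or could share the culture, also express Abca1 and Abcg1. Dendritic cell markers, 21 listed and 11 tested, summed to 615 to 681 CPM in control and 595 to 707 CPM in RGX-104 libraries, most of it Ccr7 (465 and 493 CPM), which T cells express too. The class II genes H2-DMb1, H2-Eb1, H2-Ab1 and H2-Aa are listed at 0, and so are the 3 repeated entries of each symbol. This is not read as absence, so these markers say nothing about dendritic cell content. Macrophage and monocyte markers, 22 listed and 16 tested, summed to 93.0 to 104.3 CPM in control and 103 to 118 CPM in RGX-104 libraries. Most of this sum was Ctss (means of 32.0 and 36.5 CPM in control and RGX-104) and Ly6c2 (37.0 and 45.0 CPM). Csf1r was at 1.73 and 1.39 CPM, Cd68 at 3.16 and 3.17 CPM and Spi1 at 1.23 and 1.23 CPM. Of the 16 tested, 7 had a negative and 9 a positive log2 fold change. Of the 27 tested markers of both lists edgeR and limma-voom called none. DESeq2 called 1, Batf3, which was lower (72.0 and 58.6 CPM) and is also known from activated T cells. An unadjusted p under 0.05 was found for 3 of the 11 dendritic cell markers (27.3%) and 1 of the 16 macrophage and monocyte markers (6.25%), against 13.8% of all genes. The 3 dendritic cell markers all had lower means in RGX-104, which the sum does not show. They were Batf3, the chemokine gene Ccl22 (3.66 and 1.61 CPM, log2 fold change -1.18 ± 0.41, adjusted p = 0.165) and the actin-bundling gene Fscn1 (4.23 and 2.37 CPM, -0.83 ± 0.32, adjusted p = 0.224). Of all 11 tested dendritic cell markers, 7 had a negative and 4 a positive log2 fold change. Control and RGX-104 means were 1.11 and 1.66 CPM for Itgax, 0.874 and 0.479 CPM for Flt3, and 6.52 and 5.58 CPM for Cd74. The monocyte marker Ly6c2, which activated T cells also express, had a higher mean (37.0 and 45.0 CPM, adjusted p = 0.191). The mean log2 CPM of the 27 markers was 2.09 ± 0.0316 in control and 2.00 ± 0.112 in RGX-104 (exact permutation test, p = 0.200, n = 4 per group). With that mean as a covariate the log2 fold changes were 3.45 for Abca1 and 2.29 for Abcg1 (adjusted p = 4.55e-13 and 1.08e-07). The mean includes Ccr7, Batf3 and Ly6c2, which T cells also express. It is therefore no measure of dendritic cell content, and this fit cannot decide whether such cells contributed exporter reads. CD8 T cell markers, 13 listed and 11 tested, summed to 3178 to 3344 CPM in control and 4418 to 4662 CPM in RGX-104, with 5 of 11 called higher (45.5%, against 0.888% of all genes). Most of the gap between these sums was the cytotoxic granule gene Gzmb, at 1287 and 2162 CPM. In bulk samples, fewer cells of a type and less RNA per cell cannot be told apart, nor can exporter reads of T cells and of any remaining dendritic cells.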

How the data were processed

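The authors deposited whole-number read counts per gene symbol, not normalised. Libraries came from a Lexogen 3′ FWD kit, per the labels' protocols. The submitters' processing notes name STAR 2.7.8a, R 4.1.0, DESeq2 1.4 and the build GRCm38. The sources used here do not give the counter, the strand setting or whether molecular identifiers were used, so counting precision covers counting error only. Each column's number and group word identified 1 sample title; 0 columns belonged to another series.

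The quasi-likelihood test of edgeR 4.0.16 (R 4.3.3; low counts removed by filterByExpr, TMM scaling, no covariate, all 8 libraries) was used, with Benjamini-Hochberg adjustment over all 12162 genes tested and a threshold of 0.05; the code was tested on simulated data. The SE is the log2 fold change divided by the square root of F. Log2 CPM used a prior count of 2. Replicates were no copies of each other: chi-square per degree of freedom was 6.34 to 9.60 over the 12 pairs within groups. Alternatives were DESeq2 1.42.0, limma-voom (limma 3.58.1), other scalings, no filter, a marker covariate, added repeated symbols and leaving out each library.

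Members and lists were chosen with earlier results of these data known. Named genes were the 6 members, up to 3 called genes and the most abundant tested gene of each list, and the 5 genes most like the exporters. Abca5, Abcg4, Abcg5, Abcg8, Abcb1b, Tap1, Tap2, Soat1, Nr1h2, Nr1h3, Rxra, Rxrb, Srebf2, Sult2b1, Apoa1, Vldlr, Stard5, Vps4a, Batf3, Ccl22, Fscn1, Ly6c2, Itgax, Flt3, Cd74, Ctss, Csf1r, Cd68, Spi1 and Cd2 were added after their values were seen. Coordinates and promoters are from RefSeq (GRCm38.p6).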

Additional observations from a re-analysis of the deposited data

Results flagged for a closer look

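In 3 of 44 groups of 4 libraries checked, 1 library stood further from its neighbours than a 95% limit for outliers allows, which chance gives in about 1 of 20 groups. Abcg1 was at 13.1 CPM in control replicate 3, against 8.54 to 9.18 CPM in the other control libraries. Apoe was at 8.08 CPM in the same library, against 10.9 to 11.3 CPM in the others. Abce1 was at 238 CPM in control replicate 2, against 214 to 218 CPM in the others. The cause was not tested.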

How the results depend on the processing

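Abca1 and Abcg1 were called higher under all 15 alternatives, with log2 fold changes of 3.34 to 3.45 and 2.29 to 2.57. Abca2 passed the threshold in DESeq2 (log2 fold change 0.41) and without control replicate 4, and ranged from 0.33 to 0.49 with 1 library left out. Abca3 ranged from -0.20 to 0.11, Abca7 from -0.07 to 0.15 and Abcg2 from 0.21 to 0.38, with no call. The 108 higher and 216 lower genes became 172 higher and 272 lower in DESeq2, and 42 higher and 130 lower with the marker covariate; with 1 library left out they were 57 to 93 higher and 144 to 211 lower. The cause was not tested. With raw counts plus 0.5, all 9 pair differences stayed at the smallest p. With 3 against 4 libraries the exact test cannot go below 0.0571, so those pair differences are values without a test. No paired analysis was possible because the groups share no replicate numbers. Abca3, Abca7 and Abcg2 had 77 to 188 reads per library. The spread of Abca7 was 18.9% of its mean in control, where counting noise alone would give 8.29%.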
